A study of Mus musculus with 3 samples.

Results

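The secretory pathway and unfolded protein response (UPR) genes described here are 41 named mouse genes, and all 41 were found among the 37646 genes counted in each library. They are picked by gene name, by a rule that uses no measured value. They comprise 10 luminal chaperones and co-chaperones, 6 genes of disulfide formation, 8 of ER-associated degradation (ERAD), 9 of the translocon, the translocon-associated protein complex (TRAP) and signal peptidase, 4 plasma cell secretory genes and 4 stress sensors or transducers. Their RNA was measured in lymphomas of pBIC2 mice, which model ABC-DLBCL (diffuse large B cell lymphoma of the activated B cell type), a cancer of B cells that have entered the germinal centre.

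All libraries share 1 genotype on the C57BL/6 background, written in the labels as p53F/F, Blimp1F/F, IKK2castopF/stopF, Cg1Cre/+ and Eu-hBCL2tg/+. These are floxed alleles of Trp53 and of Prdm1 (which encodes Blimp1, the repressor that drives plasma cell differentiation), a constitutively active IKK2 behind a floxed stop, Cre recombinase expressed from the Cγ1 locus, which acts mainly in germinal centre B cells, and a human BCL2 transgene under the Eµ enhancer. B220+GFP+ cells were sorted from the spleens of moribund mice after exclusion of dead cells, and 3 libraries, named here tumours 1, 2 and 3, form 1 group. Germinal centre B cells are the control that the labels name, and that contrast was not analysed here, so the values are levels in lymphomas and their spread, and nothing is tested against normal B cells. Whether each library comes from its own mouse is not stated in the labels, so the spread may be technical in part.

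Proteins that are to be secreted or displayed on the cell surface enter the endoplasmic reticulum (ER) through the Sec61 channel, lose their signal peptide and fold with the help of chaperones and disulfide isomerases. Chains that fail to fold are drawn back to the cytosol through ERAD and degraded. When unfolded chains accumulate, the membrane sensors IRE1α, PERK and ATF6 switch on the UPR, which raises the genes of this machinery through the transcription factors XBP1, ATF4 and cleaved ATF6. In the B lineage the machinery expands as cells become plasma cells, a step that needs Blimp1.

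The libraries held 15576975, 16477997 and 17014022 gene counts in tumours 1, 2 and 3. All 8 pan B cell markers reached 10 CPM (counts scaled to the library total and normalised by TMM) or more in each tumour, with sums of 6771, 10768 and 9539 CPM. The 10 plasma cell markers summed to 984, 995 and 936 CPM, and 5 of them had 10 CPM or more in each tumour, among them Irf4 (392, 297 and 233 CPM) and Tnfrsf13b (238, 486 and 395 CPM), which B cells also express. Prdm1 had 7.09, 10.4 and 7.72 CPM and Tnfrsf17 0.199, 0 and 0 CPM. Prdm1 is floxed in this genotype, and counts per gene do not separate transcripts of an intact allele from those of a recombined one. The libraries stood apart in genes of other cell types. The 10 T cell markers summed to 115, 277 and 1372 CPM, and 9 of them were highest in tumour 3, where Cd8a had 238 CPM and Cd3e 57.7 CPM; Cd3e was at 0 in tumour 1. The 8 macrophage and monocyte markers summed to 35.8, 402 and 179 CPM, and 7 of them were highest in tumour 2, where Cd68 had 325 CPM and Cd14 0.184 CPM. The part of these cells in the values of the secretory genes was not tested. In such bulk libraries, fewer cells of a type and less RNA per cell cannot be told apart.

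The control sequence of this pathway is the ER stress response element (ERSE), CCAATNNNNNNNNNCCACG, in which NF-Y binds the CCAAT end and ATF6 or XBP1 the CCACG end. The sites are shown because the element is the best-known control sequence of the pathway. RefSeq promoters (build GRCm38.p6, 250 bases before to 50 bases after the transcription start) were at hand for 33 of the 41 genes, and 10 of the 33 held an ERSE on either strand, against 39 of 32851 promoters of all genes (0.119%). The element was first described in promoters of genes such as Hspa5, Hsp90b1 and Calr, so its presence in those genes is not an independent observation. A shorter relative, ERSE-II (ATTGGNCCACG), was present in 12 of all promoters (0.0365%), and 2 of these belonged to members, Dnajb11 and Herpud1. Below, each site reads 5′ to 3′ in the orientation of its motif, with the fixed bases of the motif in capitals.
Hspa5 (ERSE, chr2:34772025-34772043): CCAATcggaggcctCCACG
Hsp90b1 (ERSE, chr10:86705638-86705656): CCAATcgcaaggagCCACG
Hsp90b1 (ERSE, chr10:86705533-86705551): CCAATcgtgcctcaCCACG
Calr (ERSE, chr8:84847075-84847093): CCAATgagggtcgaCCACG
Canx (ERSE, chr11:50325800-50325818): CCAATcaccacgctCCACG
Dnajc3 (ERSE, chr14:118937827-118937845): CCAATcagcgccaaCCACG
Pdia6 (ERSE, chr12:17266491-17266509): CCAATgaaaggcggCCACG
Creld2 (ERSE, chr15:88819520-88819538): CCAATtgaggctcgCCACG
Ero1lb (ERSE, chr13:12565682-12565700): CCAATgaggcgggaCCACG
Derl3 (ERSE, chr10:75893242-75893260): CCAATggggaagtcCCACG
Syvn1 (ERSE, chr19:6046532-6046550): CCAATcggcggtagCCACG
Dnajb11 (ERSE-II, chr16:22857852-22857862): ATTGGcCCACG
Herpud1 (ERSE-II, chr8:94386377-94386387): ATTGGgCCACG

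The same sites read on the strand of the gene at Hspa5, Canx, Dnajc3, Pdia6, Syvn1, Dnajb11, Herpud1 and the outer Hsp90b1 site, and on the opposite strand at Calr, Creld2, Ero1lb, Derl3 and the inner Hsp90b1 site. Counted from the transcription start, the Hspa5 element lay at -65 to -47, that of Derl3 at -156 to -138, that of Ero1lb at -201 to -183 and that of Herpud1 at -52 to -42. The XBP1-type element TGACGTGG, whose reverse complement contains CCACG, was in 222 of all promoters (0.676%) and in none of the 33 members. The letters CCACG alone, which all 3 motifs contain on 1 of the strands, were in 32.8% of all promoters and in 27 of the 33 members. Of 99 other genes of the pathway with a promoter, 0 held an ERSE or an ERSE-II, 10 held the XBP1-type element and 65 held CCACG. A match is a string of letters in this window and not a measured binding site, and a missing match says nothing of the factors. The 8 members with no entry were Hyou1, Manf, Derl1, Sec61a1, Ssr2, Sec11c, Mzb1 and Atf6.

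**Figure D1:**
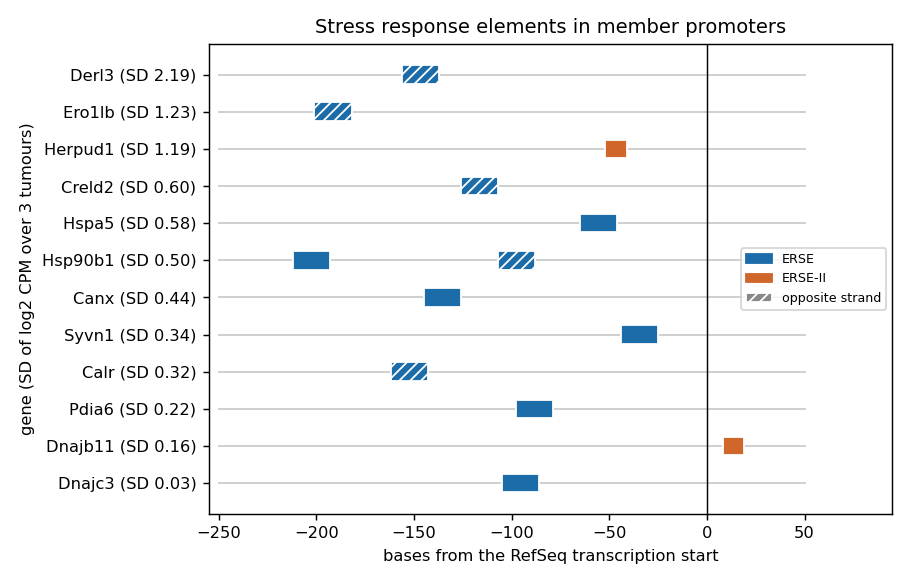
Position of each ERSE (blue) and ERSE-II (orange) match in the 300-base promoters of 12 members, in bases from the RefSeq transcription start (vertical line); hatched boxes read on the strand opposite to the gene, and beside each name stands the gene's SD of log2 CPM over the 3 tumours. Genes with a match run from Derl3, with the largest spread among members (SD 2.19), to Dnajc3, with the smallest (0.03).

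The full promoters are shown for Hspa5, the member of highest mean CPM, and for Derl3, Herpud1 and Ero1lb, the members with a motif that varied most between tumours; each is on the plus strand, 5′ to 3′, with the ERSE or ERSE-II in capitals (at Derl3 and Ero1lb as its reverse complement).
Hspa5 (chr2:34771840-34772139): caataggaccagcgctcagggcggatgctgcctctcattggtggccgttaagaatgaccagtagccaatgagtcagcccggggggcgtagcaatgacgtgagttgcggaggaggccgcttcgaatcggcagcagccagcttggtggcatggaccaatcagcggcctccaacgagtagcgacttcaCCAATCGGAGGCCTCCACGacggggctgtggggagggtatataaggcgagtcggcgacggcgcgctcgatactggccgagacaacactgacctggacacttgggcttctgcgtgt
Derl3 (chr10:75893148-75893447): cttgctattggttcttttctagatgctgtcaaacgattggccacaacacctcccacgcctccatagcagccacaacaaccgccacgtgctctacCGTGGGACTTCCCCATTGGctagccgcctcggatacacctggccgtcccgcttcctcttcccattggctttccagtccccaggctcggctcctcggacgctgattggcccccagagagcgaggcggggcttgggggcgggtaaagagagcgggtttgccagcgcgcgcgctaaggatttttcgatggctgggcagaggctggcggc
Herpud1 (chr8:94386179-94386478): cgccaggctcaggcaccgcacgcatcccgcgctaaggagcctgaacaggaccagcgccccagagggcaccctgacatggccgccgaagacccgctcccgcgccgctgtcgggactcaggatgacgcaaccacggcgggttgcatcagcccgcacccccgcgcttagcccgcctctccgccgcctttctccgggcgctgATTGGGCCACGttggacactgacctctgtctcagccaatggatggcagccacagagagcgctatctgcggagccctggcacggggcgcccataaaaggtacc
Ero1lb (chr13:12565633-12565932): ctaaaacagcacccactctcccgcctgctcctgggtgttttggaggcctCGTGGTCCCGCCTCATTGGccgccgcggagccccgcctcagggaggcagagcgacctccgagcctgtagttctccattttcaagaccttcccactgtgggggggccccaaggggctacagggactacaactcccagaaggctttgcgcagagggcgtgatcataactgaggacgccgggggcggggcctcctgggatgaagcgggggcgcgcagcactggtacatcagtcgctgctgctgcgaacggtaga

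Expression of the machinery was broad. A level of 10 CPM or more in every tumour was reached by 36 of the 41 members, against 30.3% of the 25463 genes with a count in any library, and by 36 of the 40 members that passed edgeR's filter on low counts, against 68.5% of the 11273 genes that passed. The exceptions were Derl3 (in tumour 3), Sec61g, Jchain, Fkbp11 and Sdc1. Together the 41 genes held 0.968% of the counts of tumour 1 (95% Wilson interval 0.963 to 0.973), 1.24% of those of tumour 2 (1.23 to 1.24) and 0.969% of those of tumour 3 (0.964 to 0.973), intervals that cover counting error only. Their summed level was 9993, 12507 and 9289 CPM (10596 ± 1692, SD, n = 3), highest in tumour 2. A few genes made up much of it, counted with no regard to their length: the 5 members with most counts held 41.4%, 48.1% and 47.2% of the members' counts in tumours 1, 2 and 3. Hspa5, Calr, Pdia4 and Pdia3 were among the 5 in every tumour, with Hsp90b1 in tumours 1 and 2 and Canx in tumour 3.

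Longer transcripts yield more counts, so levels of different genes were compared as RPKM (CPM per kilobase of exon). The exon length joined the exons of all annotated transcripts of a gene, so it can exceed that of any transcript the cells made. On that scale the order was led by Calr (357 ± 75.3 RPKM, SD, n = 3), Pdia4 (336 ± 39.8), Hspa5 (274 ± 99.3), Hsp90b1 (265 ± 87.6) and Pdia3 (249 ± 61.7), and neighbours in this order differed by less than the larger of their SDs. Creld2, P4hb, Canx, Herpud1 and Mzb1 followed, from 142 to 93.8 RPKM. At the other end stood Sdc1 (0.0993 ± 0.0421 RPKM), Fkbp11 (0.901 ± 0.297), Sec61g (1.54 ± 0.0918), Jchain (2.82 ± 2.10), Creb3l2 (4.02 ± 1.88) and Ern1 (5.33 ± 4.51). The lowest 6 thus held 3 of the 4 plasma cell secretory genes and 2 of the 4 sensors or transducers.

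**Figure D2:**
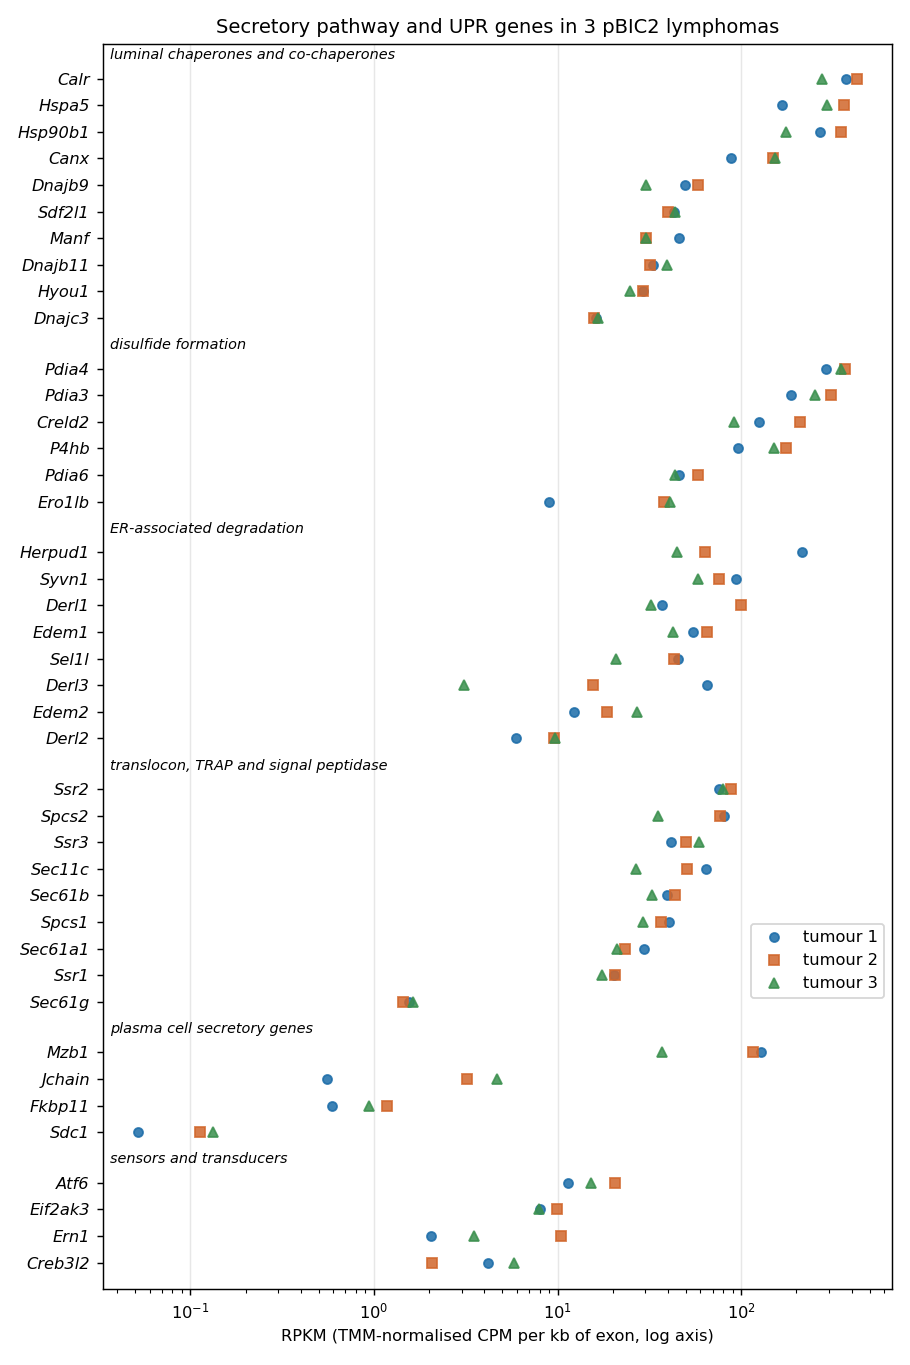
RPKM of each of the 41 genes (rows, grouped by role and ordered by mean) in each tumour (1 point per library) on a log axis. The luminal chaperones and disulfide isomerases reach the right end near 425 RPKM (Calr in tumour 2), the plasma cell genes other than Mzb1 lie at the left, and the widest separation between points is that of Derl3.

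The members' spread between tumours was close to that of all genes. The highest and lowest tumours were 2-fold or more apart, as a difference of log2 CPM with a prior count of 2, for 14 of the 40 members that passed the filter, against 34.1% of all genes that passed, so that the share of members (35%) is not a result about them. With 1 tumour left out the range covers fewer libraries, and the count was 9 without tumour 1 (16.7% of all genes that passed), 9 without tumour 2 (21.4%) and 8 without tumour 3 (18.9%). Among genes at 10 CPM or more in every tumour, 12 of 36 members were that far apart, against 23.3% of 7723 genes. The median SD of log2 CPM was 0.41 over the 40 members that averaged 1 CPM or more and 0.44 over all 12445 such genes. Among genes at 10 CPM or more in every tumour it ran the other way, 0.38 over members and 0.34 over all genes. For 4 members, Dnajc3, Sdf2l1, Sec61g and Sdc1, the exact 95% Poisson intervals of the highest and lowest tumour overlapped, so that no difference was clear of counting error by this measure. Overlap is not a test of a difference, and the share of all genes with such overlap was not counted.

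**Figure D3:**
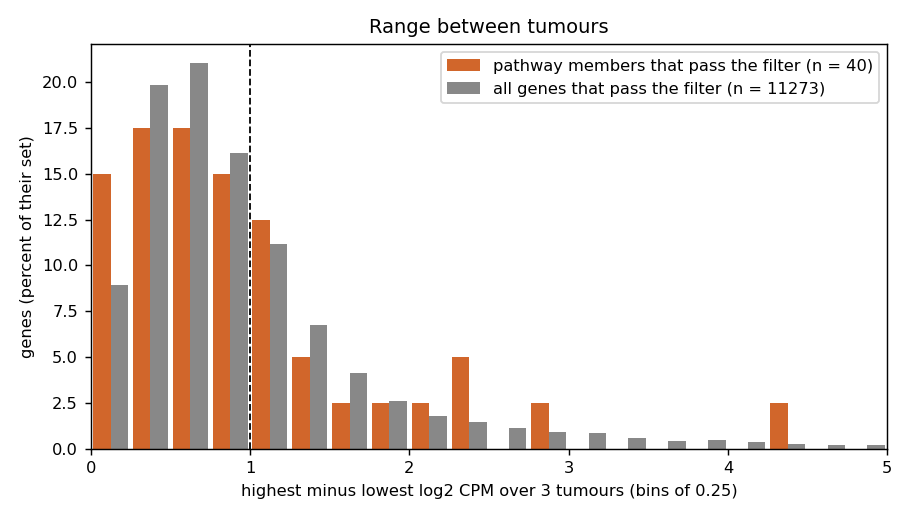
Distribution of the difference between the highest and the lowest tumour in log2 CPM (x axis, bins of 0.25, shown up to 5) as a percent of the 40 members (orange) and of all 11273 genes that passed the filter (grey). The dashed line marks 2-fold; 14 members lie beyond it, and Derl3 is the only one beyond 4.

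The members were also counted by the tumour in which each stood highest or lowest, whatever the size of the difference. Tumour 2 was highest for 18 of the 40 members, against 30.8% of all genes that passed the filter, tumour 1 for 11 (35.8% of all genes) and tumour 3 for 11 (33.4%). Tumour 3 was lowest for 20 of the 40, against 35.2% of all genes, tumour 1 for 14 (34.3%) and tumour 2 for 6 (30.6%). Macrophage markers were highest in tumour 2 and T cell markers in tumour 3, as given above, and their part in these counts was not tested. Without tumour 3, an alternative chosen after seeing the data, 25 of the 41 members were higher in tumour 2 and 16 in tumour 1. Of the 40 that passed the filter, 24 were higher in tumour 2, against 49.5% of all genes that passed, and 16 in tumour 1, against 50.5%. Each tumour is 1 library, so these counts describe the libraries and carry no test.

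The 3 luminal chaperones of highest mean CPM, a scale with no correction for length, were Hspa5, Hsp90b1 and Calr. Hspa5 encodes BiP, the Hsp70 of the ER that binds unfolded chains and holds the stress sensors inactive, and had 703, 1531 and 1237 CPM in tumours 1, 2 and 3 (1157 ± 420, SD, n = 3). Tumour 1 stood lowest, 2.18-fold under tumour 2, and Hspa5 was the only chaperone past 2-fold. Hsp90b1, the ER Hsp90 known as GRP94, had 1086, 1414 and 708 CPM (1069 ± 353), and its highest and lowest values lay just under 2-fold, at 1.996. Calr, the lectin chaperone calreticulin, had 1068, 1224 and 796 CPM (1029 ± 217). Both were lowest in tumour 3, whereas Hspa5 was lowest in tumour 1, so these chaperones did not share 1 order of tumours.

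The remaining 7 chaperones averaged between 46.7 and 608 CPM. Canx, the membrane-bound lectin chaperone calnexin, had 415, 696 and 713 CPM, lowest in tumour 1 as Hspa5 was. The BiP co-chaperones of the DnaJ family differed in spread: Dnajb9, known as ERdj4 and a classical target of XBP1, had 127, 149 and 77.0 CPM, while Dnajb11 (ERdj3) had 108, 103 and 127 CPM. Dnajc3, known as p58IPK, was the least variable of all members, with 83.0, 81.3 and 84.9 CPM. Sdf2l1, a partner of ERdj3, had 47.7, 44.1 and 48.2 CPM, with overlapping intervals as for Dnajc3. The nucleotide exchange factor Hyou1 (201 ± 18.2 CPM) had 212, 211 and 179.8 CPM, and the secreted stress protein Manf (125 ± 31.4 CPM) was highest in tumour 1, at 161 CPM.

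Genes of disulfide formation were in most cases highest in tumour 2 (5 of 6, against 30.8% of all genes that passed the filter) and lowest in tumour 1 (4 of 6, against 34.3%). Pdia4, the isomerase ERp72, had 699, 881 and 839 CPM (806 ± 95.5, SD, n = 3). Pdia3, the isomerase ERp57 that works with calnexin and calreticulin, had 583, 969.7 and 796 CPM (783 ± 194). P4hb, protein disulfide isomerase itself, had 276, 500.2 and 431 CPM (402 ± 115). In all 3 isomerases tumour 1 was lowest and tumour 2 highest, by less than 2-fold.

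Ero1lb, which encodes the oxidase ERO1β that recharges these isomerases, was the most variable gene of the role, with 60.1, 251 and 274 CPM (195 ± 117, SD, n = 3). Tumour 1 stood 4.56-fold under tumour 3, and tumours 2 and 3 were close. It lies on chromosome 13 at 12565874 to 12611396 of mm10. Of its 50-base windows, 9.39% also occur in other transcripts, among them those of the predicted gene Gm18562. In one of its coding transcripts, of 1964 bases, the share was 32.3%, so that part of its reads could be lost or shared. Its relative Ero1l, not a member, had 31.9, 39.4 and 38.2 CPM. Creld2, a stress-inducible ER protein, had 171, 287 and 125 CPM (195 ± 83.3), 2.29-fold higher in tumour 2 than in tumour 3. Pdia6 had 172, 217 and 162 CPM.

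Of the 8 ERAD genes, 5 were past 2-fold, against 34.1% of all genes that passed the filter, and 6 were lowest in tumour 3, against 35.2%. Of 18 other ERAD genes, described further down, 2 were past 2-fold. Its core enzyme Syvn1, the ubiquitin ligase HRD1, had 453, 367 and 285 CPM (368 ± 84.4, SD, n = 3). Edem1, which marks misfolded glycoproteins by mannose trimming, had 354, 422 and 274 CPM (350 ± 74.0). Sel1l, the partner that stabilises HRD1, had 389, 368 and 177 CPM (311 ± 117), 2.19-fold lower in tumour 3 than in tumour 1. The T cell markers were highest in tumour 3, and their part in the lower values there was not tested.

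Herpud1 encodes HERP, a membrane protein that assembles the HRD1 complex and is itself induced by ER stress. It had 500.5, 148 and 104 CPM (251 ± 217, SD, n = 3), so that tumour 1 stood 4.82-fold above tumour 3 and apart from both others. The mean was 128 CPM without tumour 1 and 318 CPM without tumour 3. The gene lies on chromosome 8 at 94386438 to 94395377, and none of its 50-base windows occurs in annotated transcripts of other genes. The rest of the genome was not searched.

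The 3 derlins, membrane proteins that help move chains out of the ER, had a different order of abundance in different tumours. Derl3, the derlin best known from secretory cells and a target of the UPR, had 129.5, 31.0 and 6.14 CPM (55.6 ± 65.2, SD, n = 3), from 1954, 506 and 109 counts. The exact 95% Poisson intervals were 124 to 135, 28.4 to 33.8 and 5.04 to 7.41 CPM, so that no interval touched another. Its 21.1-fold range between tumours 1 and 3 was the widest of all members, and its mean was 18.9 CPM without tumour 1. Derl3 lies on chromosome 10 at 75893413 to 75895941 and shares no 50-base window with annotated transcripts of other genes.

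Derl1, the widely expressed derlin, had 124, 334 and 108 CPM (189 ± 126, SD, n = 3). It was highest in tumour 2, 3.09-fold above tumour 3, and averaged 117 CPM without tumour 2. Derl2 had 48.0, 76.6 and 78.1 CPM. Per length of exon, Derl3 held 60.04% of the summed derlin RPKM in tumour 1, against 12.4% in tumour 2 and 6.81% in tumour 3. Derl1 held 34.4%, 80.0% and 71.7% of it, and Derl2 the rest. These shares rest on joined exon lengths of 3328 bases for Derl1, 8049 for Derl2 and 1993 for Derl3. One coding transcript of Derl2 has 1466 bases, so the share of Derl2 may be understated and those of the others overstated. Edem2, which makes the first mannose cut, ran the other way from most of the role, with 42.8, 64.8 and 93.8 CPM in tumours 1, 2 and 3.

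**Figure D4:**
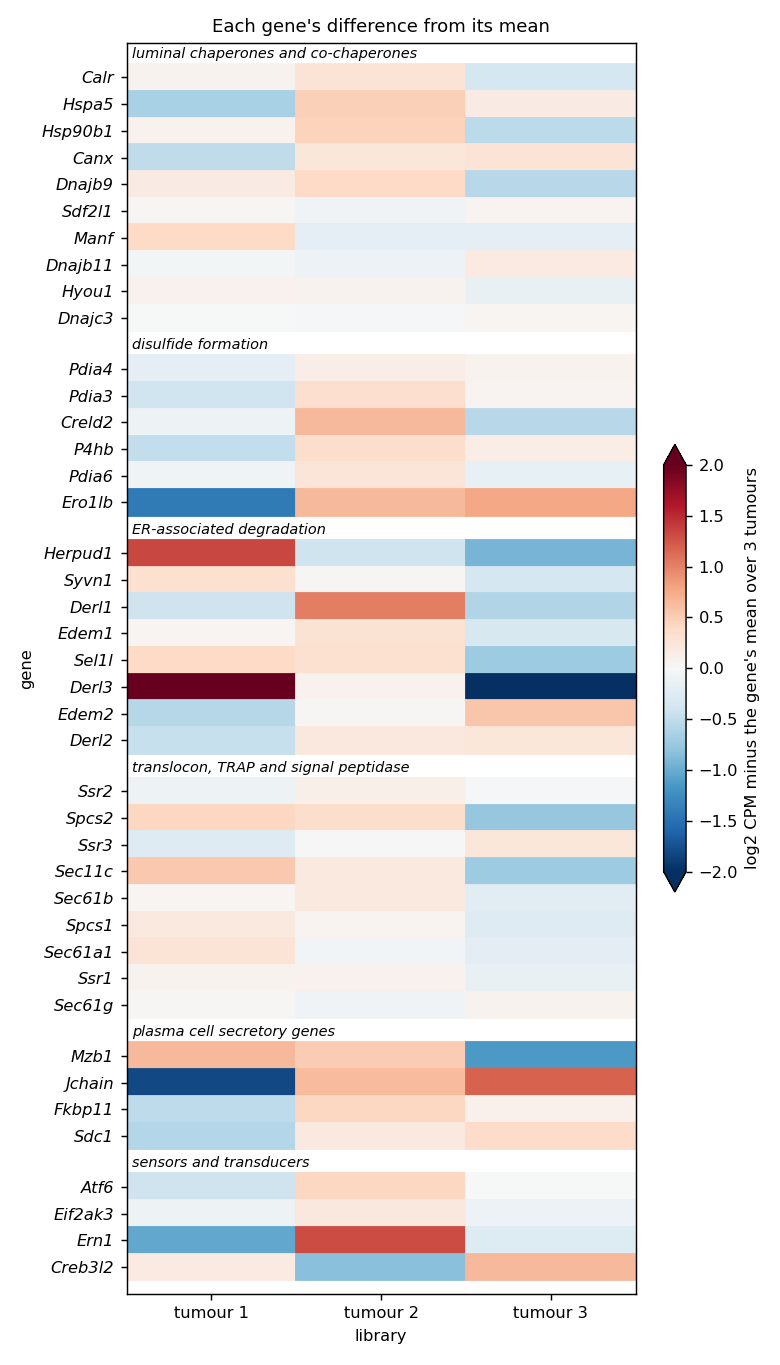
Difference of each gene's log2 CPM from its mean over the 3 tumours (colour scale, log2 units, limited to 2 in either direction) for the 41 genes (rows, by role) in each tumour (columns). Derl3 and Herpud1 are highest in tumour 1, Ern1 and Derl1 in tumour 2, Ero1lb and Jchain lowest in tumour 1, and most chaperone and translocon rows are pale.

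Of the translocon, TRAP and signal peptidase genes, 2 of 9 were past 2-fold, and both belong to signal peptidase. The share was 34.1% of all genes that passed the filter and 23.3% of genes at 10 CPM or more in every tumour. Sec11c, a catalytic subunit of the enzyme that cuts signal peptides, had 440.2, 345 and 182 CPM (322 ± 131, SD, n = 3). Spcs2, an accessory subunit, had 342, 323 and 149 CPM (271 ± 106). Both were lowest in tumour 3, by 2.42-fold and 2.30-fold under tumour 1. Spcs1, another accessory subunit, followed the same order with a smaller range, at 62.5, 56.7 and 45.2 CPM. Of the subunits that are not members, Sec11a, the other catalytic one, had 97.8, 73.9 and 61.9 CPM, whereas Spcs3 had 148, 150.4 and 154 CPM and did not follow that order.

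Of the TRAP subunits, which help chains enter the channel, Ssr1 and Ssr2 were among the steadiest members and Ssr3 varied more. Ssr3 had 172, 208 and 245 CPM (209 ± 36.7, SD, n = 3), Ssr1 averaged 202 ± 17.5 CPM and Ssr2 151 ± 12.1 CPM. For the channel itself, Sec61a1, the pore-forming subunit, had 199, 157 and 142 CPM (166 ± 29.7), and Sec61b, a small subunit, had 50.1, 55.5 and 41.6 CPM. Sec61g, the other small subunit, had 3.84, 3.56 and 4.002 CPM from 58, 58 and 71 counts. This low level is uncertain: 77.6% of the 50-base windows of one of its coding transcripts also occur in other transcripts, such as the pseudogene Gm10177 (7, 5 and 13 counts), and reads that fit several places may not have been counted. The same holds in part for Sec61b, where the share was 50.4% in one coding transcript, and for Ssr2, where it was 43.6%.

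Plasma cell secretory genes were split between Mzb1 and the other 3. Mzb1, a B lineage ER protein that assists the assembly of IgM and is high in marginal zone and plasma cells, had 155, 142 and 44.8 CPM (114 ± 60.3, SD, n = 3), 3.47-fold lower in tumour 3 than in tumour 1. Of its 50-base windows, 53.5% also lie in transcripts annotated to the overlapping gene SPATA24 on the same strand, which was not analysed here, so that its level may be understated. Jchain, which links IgM and IgA into polymers, had 1.39, 8.09 and 11.8 CPM from 21, 132 and 210 counts, an 8.50-fold range with tumour 1 lowest. Its mean of 7.11 ± 5.29 CPM (SD, n = 3) was 4.63 CPM without tumour 3 and 10.1 CPM without tumour 1. Fkbp11, a prolyl isomerase of secretory cells, had 1.59, 3.19 and 2.54 CPM from 24, 52 and 45 counts.

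Sdc1, which encodes the plasma cell surface marker CD138, had 0.199, 0.429 and 0.507 CPM from 3, 7 and 9 counts, with overlapping intervals. It was the only member with a mean under 1 CPM and the only one that did not pass the filter. Mzb1 was thus at 93.8 ± 49.6 RPKM, against 2.82 ± 2.10 RPKM for Jchain, 0.901 ± 0.297 for Fkbp11 and 0.0993 ± 0.0421 for Sdc1. As secretory cargo, the heavy chain constant gene Ighm stood at 5663, 6282 and 5937 CPM, and light chain constant genes differed by tumour, with Igkc at 5531, 935 and 2834 CPM and Iglc1 at 58.9, 2330 and 100.3 CPM. The counts do not separate membrane from secreted transcripts.

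Sensors and transducers averaged 4.02 to 15.7 RPKM per gene, all among the lowest 9 members on that scale. Atf6, the sensor that is cut in the Golgi to release a transcription factor, had 106, 189 and 140.2 CPM (145 ± 41.9, SD, n = 3). Eif2ak3, which encodes PERK, the kinase that slows translation, had 48.6, 60.1 and 47.9 CPM (52.2 ± 6.88). Ern1, which encodes IRE1α, the nuclease that splices Xbp1, had 16.6, 85.5 and 28.5 CPM (43.6 ± 36.8) from 251, 1395 and 506 counts. Tumour 2 stood 5.14-fold above tumour 1, and the mean without tumour 2 was 22.8 CPM. No 50-base window of Ern1 (chromosome 11, 106394650 to 106487852) occurs in annotated transcripts of other genes.

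The 3 sensors were therefore unequal in spread, with an SD of log2 CPM of 1.20 for Ern1, 0.42 for Atf6 and 0.18 for Eif2ak3. All 3 were highest in tumour 2, as were 18 of the 40 members that passed the filter and 30.8% of all genes that passed. For Eif2ak3 tumour 2 stood only 1.26-fold above tumour 3, the lowest. Creb3l2, a membrane-bound transcription factor related to ATF6 that serves secretory cells, had 30.6, 15.0 and 42.3 CPM (29.3 ± 13.7), lowest in tumour 2 and 2.81-fold higher in tumour 3. Macrophage markers were highest in tumour 2 as well, and their part in the sensors' values was not tested.

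The roles differed in which tumour held their highest and lowest sums. Chaperones summed to 4009, 5560 and 4079 CPM in tumours 1, 2 and 3, and disulfide genes to 1961, 3106 and 2628 CPM, both highest in tumour 2. ERAD genes summed to 2041, 1811 and 1126 CPM, and translocon, TRAP and signal peptidase genes to 1621, 1527 and 1138 CPM, both lowest in tumour 3. Plasma cell genes summed to 159, 153 and 59.7 CPM, nearly all of it Mzb1, and the sensors and transducers to 202, 350 and 259 CPM. Tumour 1 held the highest sum of ERAD genes through Herpud1 alone: without that gene the ERAD sums were 1541, 1662.4 and 1022 CPM, highest in tumour 2, an alternative added after seeing the data. Leaving out any other ERAD gene kept tumour 1 highest, and tumour 3 was lowest in each case. Orders of other roles also hinged on single genes. Without Sec11c the translocon, TRAP and signal peptidase sums were 1181, 1182 and 957 CPM, highest in tumour 2. The chaperone sum was lowest in tumour 3, not tumour 1, without Hspa5 or without Canx. Without Mzb1 the plasma cell sum was highest in tumour 3.

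**Figure D5:**
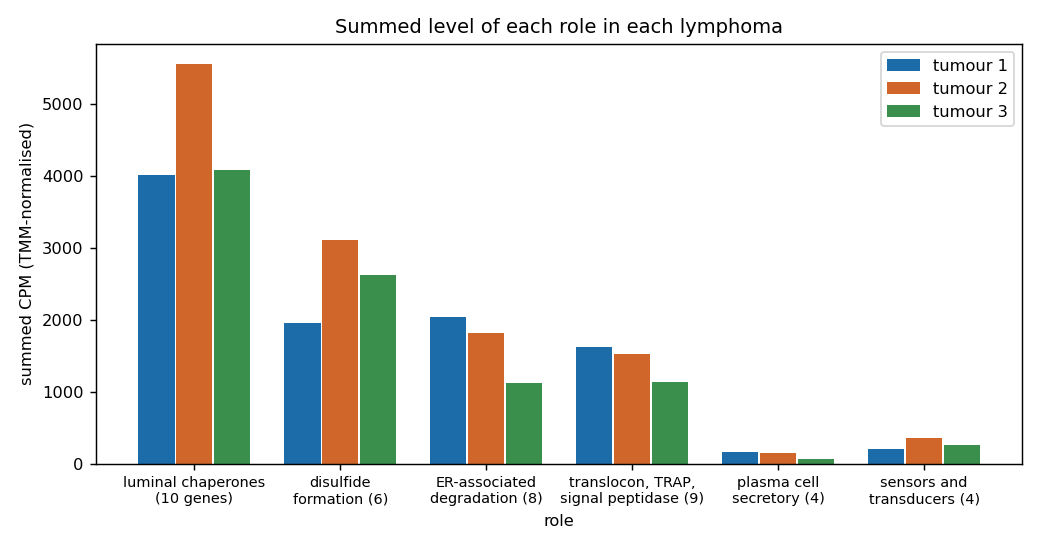
Summed TMM-normalised CPM of the members of each role (x axis, number of genes in brackets) in each tumour (bars, 1 library each, no error). The chaperone bars are 4009, 5560 and 4079 CPM and the ERAD bars 2041, 1811 and 1126 CPM for tumours 1, 2 and 3.

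The 14 genes past 2-fold fell into 5 of the 6 possible orders of highest and lowest tumour. Herpud1, Derl3, Sel1l, Sec11c, Spcs2 and Mzb1 (6 genes, of which 3 belong to ERAD and 2 to signal peptidase) were highest in tumour 1 and lowest in tumour 3, an order that 20.4% of the 3845 genes past 2-fold followed. Ero1lb, Edem2 and Jchain had the reverse order, which 20.6% of those genes followed. Hspa5 and Ern1 were highest in tumour 2 and lowest in tumour 1 (15.9%), Creld2 and Derl1 highest in tumour 2 and lowest in tumour 3 (13.9%), and Creb3l2 highest in tumour 3 and lowest in tumour 2 (12.2%). Just under the threshold lay Hsp90b1 (log2 range 0.997), Dnajb9 (0.95) and Fkbp11 (0.95), and just past it Hspa5 (1.12), Edem2, Sel1l and Creld2, with folds of 2.18 to 2.29. Counted by direction, 6 members were past 2-fold and highest in tumour 1 (12.7% of all genes that passed the filter), 4 in tumour 2 (10.2%) and 4 in tumour 3 (11.2%). By their lowest tumour, 5 were past 2-fold in tumour 1 (12.4%), 1 in tumour 2 (9.95%) and 8 in tumour 3 (11.7%).

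Spread was next read by promoter. Of the 10 members with the element, 4 were past 2-fold (Hspa5, Creld2, Ero1lb and Derl3), against 34.1% of all genes that passed the filter, with a median SD of log2 CPM of 0.47 and a range of SDs of 0.03 to 2.19. Of the 23 members with a promoter that lacked it, 22 passed the filter and 7 were past 2-fold, and the median SD was 0.40. The median level was 103 RPKM with the element and 35.4 RPKM without it, a description of members that includes the abundant chaperones in which the element was first found. Derl3, Ero1lb and Hspa5, whose elements are printed above, took 3 different orders of the tumours.

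Regulators outside the 41 genes were set beside them. Of 17 UPR regulators, 10 had 10 CPM or more in each tumour, against 30.3% of genes with a count in any library. Past 2-fold were 4 of the 11 that passed the filter, close to the 34.1% of all genes that passed. These were Atf4, Ddit3, Ppp1r15a and Trib3, all highest in tumour 2. Of all genes that passed, 10.2% were past 2-fold and highest in tumour 2. Atf4, the transcription factor translated when PERK acts, had 612, 684 and 310.5 CPM. Ppp1r15a, which encodes the phosphatase subunit that ends the PERK arm, had 379, 609.9 and 253 CPM. Ddit3, which encodes the stress factor CHOP, had 64.2, 103 and 16.6 CPM. Trib3, a target of CHOP, had 0.928, 6.31 and 1.296 CPM. Atf4 and its targets also respond to stresses outside the ER.

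Xbp1, the transcription factor at the end of the IRE1α arm, had 90.0, 73.3 and 113 CPM, lowest in the tumour in which Ern1 was highest; the counts do not separate its spliced form. Atf6b, the relative of Atf6, had 207, 191 and 128 CPM. The regulators of widest spread, among those that averaged 1 CPM or more, were Chac1, another target of the ATF4 arm, at 0.596, 4.60 and 0.169 CPM, and Bhlha15, the secretory cell factor MIST1, at 0.398, 3.68 and 0.789 CPM. Both rest on few counts, 9, 75 and 3 for Chac1 and 6, 60 and 14 for Bhlha15, and neither passed the filter. Ern2, the IRE1 of gut epithelium, had no count in any library.

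The neighbouring steps of the pathway were also broadly expressed. Of 121 further genes listed for the pathway, regulators included, 105 had 10 CPM or more in each tumour. Of genes with a count in any library, 30.3% did so. Past 2-fold were 21 of the 110 that passed the filter, against 34.1% of all genes that passed. Among all genes at 10 CPM or more in every tumour the share was 23.3%. That is the nearer comparison, as most of the further genes reached this level. The median SD of log2 CPM was 0.33 over the 113 further genes that averaged 1 CPM or more. It was 0.41 over such members and 0.44 over all such genes, and 0.34 over all genes at 10 CPM or more in every tumour. Among 16 other translocation genes 4 were past 2-fold, against the same 34.1% and 23.3%. Tram2, which assists the channel, had 140.4, 17.0 and 28.4 CPM and Tram1 299.7, 113 and 241 CPM. Among 18 other ERAD genes 2 were past 2-fold (Ube2g2 and Selenok), again against 34.1% and 23.3%. The sums of the 18 genes were 1939, 1904 and 1559 CPM, lowest in tumour 3 as those of the ERAD members were. Ube2j1, the ubiquitin-conjugating enzyme of HRD1, had 407, 365 and 216 CPM, and Aup1, which recruits Ube2g2, had 329, 259 and 190.2 CPM.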

How the data were processed

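PolyA RNA of sorted B220+GFP+ lymphoma cells was read single-end over 50 bases in 3 libraries, per the labels. The authors deposited raw read counts per gene. FastQC, STAR 2.5.2b, featureCounts 1.6.0 and the build mm10 are named for them, per the submitters' processing notes. No source used here gives the annotation or whether the counting was stranded, so overlapping genes may not be told apart. The 41 members, the gene lists and the alternatives were chosen with earlier results of these data known.

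The labels gave 1 group, and tumour numbers follow accession order and are names only. No contrast was fitted and no p-value is given. Counts were normalised with TMM factors (0.969, 0.990 and 1.04, computed on the 11273 genes that passed filterByExpr) in edgeR 4.0.16 (R 4.3.3), and log2 CPM used a prior count of 2. DESeq2 1.42.0 supplied alternative size factors. Counts over all genes past the same threshold were made for comparison, but not at 1.5-fold. RPKM used exon lengths of GENCODE M21, to which 37536 gene identifiers and all 41 members matched. Windows of 50 bases shared with other genes were counted in its transcripts, and 12 members had over 5% shared. Promoters and motif searches used RefSeq (GRCm38.p6), on both strands. Sequences and figures were handled with pandas 2.3.3, NumPy 2.4.6 and matplotlib 3.10.9 in Python 3.11.15. The steps were tested on simulated counts and planted motifs. The check of the 2-fold call used a biological coefficient of variation (spread beyond counting error) of 0.1, against 0.447 in these data. It therefore does not show how often unchanged genes pass 2-fold at the spread of these libraries. The protein sequences planned for a look at retrieval signals were not used here.

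Given in full were, per role, the 3 members of highest mean CPM, the 2 of largest SD of log2 CPM and every member under 1 CPM. Of further lists, the 3 genes of highest mean and the 2 of largest SD were to be named. This was not kept in full: Srp72, Srp68, Srp19, Os9, Ganab, Stt3b, Erp44, Erp29 and Fkbp7 met that rule and were not described. The others named were added after their values were seen. At the depth of 15576975 to 17014022 counts, 3 counts equal 0.199 CPM in tumour 1, 0.184 in tumour 2 and 0.169 in tumour 3. Alternatives covered normalisation, prior count, filters, thresholds, gene length, motif and leaving out each tumour.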

Additional observations from a re-analysis of the deposited data

How the results depend on the processing

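The number of members at 10 CPM or more in every tumour (36), the number highest in each tumour and the members' summed CPM stayed within their limits under DESeq2 size factors and under total counts. With total counts the sums were 9680, 12382 and 9687 CPM in tumours 1, 2 and 3, so that tumours 1 and 3 were nearly equal. The number of members past 2-fold was 14, against 34.1% of all genes that passed the filter. At 1.5-fold it was 26. The share of all genes past 1.5-fold was not counted, so that number is not a result about the members. Leaving out each tumour in turn gave 8 to 9 members past 2-fold, since the range then covers fewer libraries, and a median SD of log2 CPM of 0.24 to 0.37, against 0.41. The count of promoters with an ERSE was 10, against 27 for CCACG alone. Mean CPM of single members moved by over 1.5 times without 1 tumour for Derl1, Derl3, Ern1, Herpud1 and Jchain. No paired analysis was possible because the labels give 1 group. With 1 library a tumour, differences between tumours and between libraries cannot be told apart, and genes under 5 CPM, such as Sdc1, rest on few counts.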

Other observations

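Steps outside the 41 genes were read from the same libraries. Among 31 genes of COPII and COPI vesicles and of retrieval to the ER, 29 had 10 CPM or more in each tumour. Of genes with a count in any library, 30.3% did so. Of the 30 that passed the filter, 4 were 2-fold or more apart: Sec16a, Sec24d, Kdelr1 and Lman1. The share was 34.1% of all genes that passed and 23.3% of genes at 10 CPM or more in every tumour. The sums of the 31 genes were 3656, 3982 and 3920 CPM in tumours 1, 2 and 3. Those of highest mean CPM, with no correction for length, were Copa, a COPI coat subunit, at 272, 303 and 387 CPM, Arf1, the GTPase that recruits that coat, at 219, 288 and 277 CPM, and Sec31a, a COPII coat subunit, at 251, 284 and 242 CPM. Sec16a, which organises ER exit sites, had 103, 223 and 270.1 CPM, lowest in tumour 1. Lman1, a cargo receptor for glycoproteins, had 171, 126 and 69.5 CPM, and Kdelr1, a receptor that returns chaperones to the ER, had 130.03, 62.3 and 73.0 CPM.

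Glycosylation genes were also broadly expressed. Of 16 genes of oligosaccharyltransferase and glycan processing, 15 had 10 CPM or more in each tumour, against 30.3% of genes with a count in any library. Of the 15 that passed the filter, 2 were 2-fold or more apart. The share was 34.1% of all genes that passed and 23.3% of genes at 10 CPM or more in every tumour. The median SD of log2 CPM of the glycosylation genes was 0.22. It was 0.44 over all genes that averaged 1 CPM or more and 0.34 over genes at 10 CPM or more in every tumour. Rpn2, a subunit of the transferase, had 269, 505 and 444 CPM. Ddost, another subunit, had 242, 384 and 189 CPM, and Mogs, the first glucosidase, had 118, 58.2 and 88.9 CPM. Among 23 other folding genes, 5 of the 20 that passed were 2-fold or more apart, against the same 34.1% and 23.3%. Of these 5, Sil1, the exchange factor of BiP, had 63.2, 25.4 and 18.5 CPM. Txndc5, a disulfide isomerase, had the highest mean CPM of the 23 folding genes, with 308, 231 and 326 CPM. Some folding genes had counts in 1 library: Pdia5 had 0, 0 and 18 counts and Fkbp14 had 0, 0 and 19 counts in tumours 1, 2 and 3. Tumour 3 was also the library with the highest T cell markers, and their part in these counts was not tested.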
